A study of Mus musculus with 2 samples.

Results

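Hippo effectors and targets of YAP are described here as 10 genes: the coactivators Yap1 and Wwtr1 (TAZ), the DNA-binding partners Tead1, Tead2, Tead3 and Tead4, the targets Ccn1 (CYR61), Ccn2 (CTGF) and Ankrd1, and the kinase Lats2. They were chosen by name, and each is represented by the brightest of its probe sets that carry exactly 1 gene symbol. All 10 were found among 22180 genes named in this way, and all 10 gene IDs matched the same symbol in RefSeq. The values come from M210B4, an established mouse bone marrow stromal cell line, measured on 2 Affymetrix Mouse Gene 2.0 ST arrays. The anti-CD84 array holds RNA of cells kept for 24 h with an antibody that activates CD84, a self-binding receptor of the SLAM family. The IgG1 array holds RNA of cells kept for the same time with an isotype control antibody. Both cultures were of the same line, grown in RPMI medium with 2% serum at 37 °C and 5% CO2, and the labels name no altered allele. With 1 array per group every difference below is a size without a standard error, test or p-value, and both groups stand for a single cell line.

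The Hippo pathway is a kinase cascade that restrains YAP and TAZ. The MST kinases activate LATS kinases, which phosphorylate YAP and TAZ and hold them in the cytoplasm; when the cascade is off, YAP and TAZ enter the nucleus and bind TEAD proteins on target genes such as Ccn1, Ccn2 and Ankrd1. The pathway is known to respond to cell density, stiffness of the substrate, serum lipids and actin tension, and in mesenchymal stromal cells it is known for its part in the choice between bone and fat fates. Because the activity of YAP and TAZ is set largely by phosphorylation and location, mRNA levels of Yap1 and Wwtr1 do not measure it, and the targets are the usual mRNA readout.

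TEAD proteins bind the letters CATTCC, which read GGAATG on the other strand, and the promoter sequences below show where these letters stand in the genes measured. Sequences are from RefSeq (GRCm38.p6), in windows of 250 bases before to 50 bases after each annotated gene start. They are printed 5′ to 3′ on the strand of the gene, here the minus strand in every case, with CATTCC or GGAATG in capitals. Both target promoters are given for the 250 bases before the gene start, Ccn1 at chr3:145649986-145650235 and Ankrd1 at chr19:36119845-36120094, since these targets are the usual readouts of TEAD-bound YAP.
Ccn1: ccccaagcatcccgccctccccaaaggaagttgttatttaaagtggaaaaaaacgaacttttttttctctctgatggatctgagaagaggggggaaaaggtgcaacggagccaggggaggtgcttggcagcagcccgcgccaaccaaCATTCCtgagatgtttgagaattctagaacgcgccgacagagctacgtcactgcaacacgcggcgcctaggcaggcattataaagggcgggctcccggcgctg
Ankrd1: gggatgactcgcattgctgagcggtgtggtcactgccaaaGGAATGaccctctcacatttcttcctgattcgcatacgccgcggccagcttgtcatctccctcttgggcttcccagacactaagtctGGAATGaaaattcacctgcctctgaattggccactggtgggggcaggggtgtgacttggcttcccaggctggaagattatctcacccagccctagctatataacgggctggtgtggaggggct

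In Ccn1 the match begins at position -103 from the gene start, and in Ankrd1 matches begin at -210 and -123. The genes for the pathway's own proteins carry the same letters, shown with 12 bases on each side.
Yap1: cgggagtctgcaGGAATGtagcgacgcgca
Wwtr1: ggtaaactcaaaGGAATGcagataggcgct
Tead3: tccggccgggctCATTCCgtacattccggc
Lats2: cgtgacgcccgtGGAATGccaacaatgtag
These lie at chr9:8004720-8004749 (Yap1), chr3:57576029-57576058 (Wwtr1), chr17:28350706-28350735 (Tead3) and chr14:57746102-57746131 (Lats2). The matches begin at -141 in Yap1, -136 in Wwtr1, -123 in Tead3, where a second copy at -114 stands in lower case in the same line, and 5 bases into the transcript in Lats2. Tead3 had 2 further matches in its 3 windows, at -182 and 3.

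Of the 7 members with a promoter entry, 6 had CATTCC on either strand in at least 1 window and Tead2 had none. Over all 27025 genes with an entry, 16.6% had it in at least 1 window, and over all 32851 windows 14.7% did. The members' 11 windows, of which 8 had it, overlap in part, and the members were chosen as TEAD-related genes, so the counts are a description only. The AP-1 letters TGANTCA, which are the same on both strands, were in 0 of the 7 members and in 8.97% of all genes. The CArG box bound by SRF was likewise in 0 of the 7 and in 1.81% of all genes. Tead1, Tead4 and Ccn2 had no entry.

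Of 9 measured marrow stromal markers, 7 passed the detection level on each array. That level, 4.84, is where 95 percent of the values of 1396 odorant and pheromone receptor genes lay lower, genes that stromal cells are not thought to use. The log2 differences of the 7 stromal markers were positive in 6, with a median of 0.40, and 2 were past 1.5-fold higher after anti-CD84, Cxcl12 at 2.15-fold and Pdgfra at 1.89-fold. Of 8 haematopoietic markers measured, 7 were below the level on both arrays, Ptprc (CD45) among them, and Csf1r (4.86 and 4.14) passed on 1 array. Lepr and Nt5e, which mark some marrow stromal cells, were below it on both. Some markers of other cell types lay near the level, and the endothelial Cdh5 (4.61 after anti-CD84 and 5.56 after IgG1) and the epithelial Cdh1 (4.73 and 5.68) were at least 1.65-fold and 1.79-fold lower, counted from it. With its probe sets averaged, Cdh1 lay inside 1.5-fold, at -0.51. The endothelial and the epithelial list each had 3 genes detected, 1 with a positive and 2 with a negative difference. The positive ones were Emcn (5.19 on both arrays) and Krt18 (5.16 and 4.93). The remaining ones were Pecam1 (4.32 and 4.99) and Krt8 (5.27 and 5.42). The part of these marker differences in the results below was not tested. In all, 13284 genes were detected on at least 1 array. In these, the log2 differences, always anti-CD84 minus IgG1, had a median of 0.09 and a standard deviation of 0.44. Of these genes 17.1% were past 1.5-fold, 10.7% (1427) higher and 6.4% (850) lower after anti-CD84. With the differences centred on their median the split was 1024 higher and 1128 lower. In RNA of a whole culture, fewer cells with a transcript and less of it per cell cannot be told apart.

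Of the 9 detected members 0 differed by 1.5-fold in either direction, against 17.1% of all detected genes (10.7% higher and 6.4% lower). That share was 13.5% among genes above the level on both arrays, as all 9 were. By mean log2 value it was 21.0% between 5 and 7 and 12.7% between 7 and 9. From 9 to 11 it was 6.66%, and from 11 up, where Ccn1 and Ccn2 lie, 1.10%. The 17.1% set beside the lists below is likewise not matched for level. At 2-fold the members' count is 0 by construction, and 3.41% of all detected genes passed. Ankrd1 was not detected. The largest difference among the 9 was that of Tead3, 1.32-fold higher after anti-CD84, followed by Ccn1 at 1.28-fold and Tead1 at 1.23-fold. As deposited, the other 6 lay between 1.12-fold lower (Tead4) and 1.02-fold higher (Yap1). With a loess curve removed, Tead4 stood farthest from 0, at -0.29. The median log2 difference of the 9 was -0.00, where all detected genes had 0.09. Over the 8 alternative settings the members' median ran from -0.13 (the trend of the difference with level taken out by loess) to 0.01 (no level filter, or a stricter one). All 9 passed the detection level on each array, so their differences are measured on both sides.

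**Figure D1:**
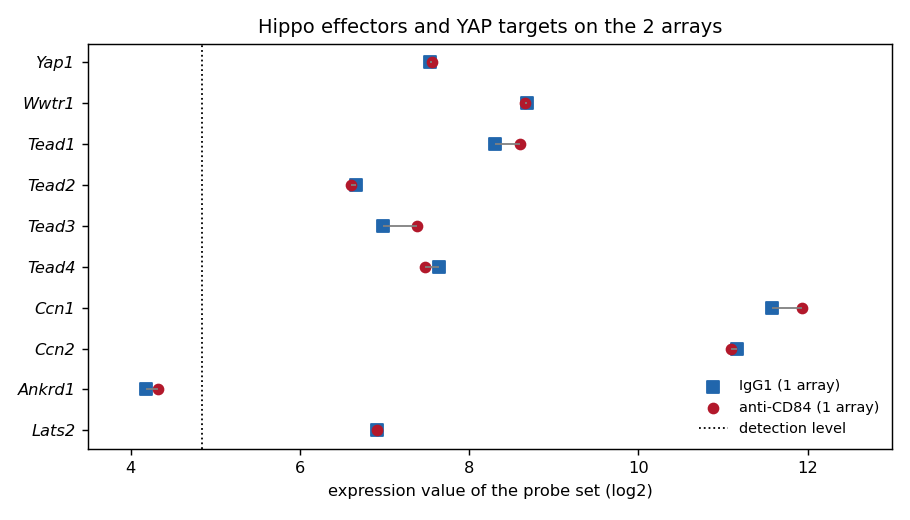
Log2 expression values of the 10 genes on the anti-CD84 array (circles) and the IgG1 array (squares), joined by a line, with the detection level of 4.84 dotted. For Yap1, Wwtr1 and Lats2 the symbols overlie each other, Ankrd1 lies left of the detection level on both arrays, and Tead3, Ccn1 and Tead1 have the longest lines, all with the anti-CD84 value to the right.

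The coactivators were nearly equal on the arrays. Yap1 was at 7.56 after anti-CD84 and 7.54 after IgG1, a log2 difference of 0.02. Its sign turned to negative when the arrays were centred on the median, corrected by a loess curve or quantile normalized, to -0.10 at the lowest. A further Yap1 probe set did not reach the detection level, at 3.45 and 3.42. Wwtr1, which encodes the YAP paralogue TAZ, was at 8.66 and 8.68, a difference of -0.02, with -0.14 its lowest value under other settings. Differences at least as large as these were found in 95.2% (Yap1) and 96.0% (Wwtr1) of all detected genes.

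The TEAD genes, whose products bring YAP and TAZ to DNA, were all detected and did not share a direction. Tead1 was at 8.60 after anti-CD84 and 8.30 after IgG1, a log2 difference of 0.30. Tead3 was at 7.38 and 6.98, a difference of 0.40. Both stayed higher after anti-CD84 on centring, loess correction and quantile normalization, but by less. The differences were then 0.18 to 0.21 for Tead1 and 0.27 to 0.32 for Tead3. The other settings could not move the TEAD genes, which have 1 probe set each and pass the level on both arrays. Tead4 was at 7.47 and 7.64, a difference of -0.17, and Tead2 at 6.60 and 6.67, a difference of -0.07. These 2 stayed lower after anti-CD84 under the same 3 corrections, by up to 0.29 on the log2 scale for Tead4 and up to 0.19 for Tead2. The differences of Tead3 and Tead4 stood 0.57 apart. For scale, among the 4542 detected genes with a mean log2 value between 7 and 9 the differences had a standard deviation of 0.37, and 27.8% were at least as far from 0 as that of Tead3. The TEAD genes are close paralogues, and whether their probes share signal was not tested.

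**Figure D2:**
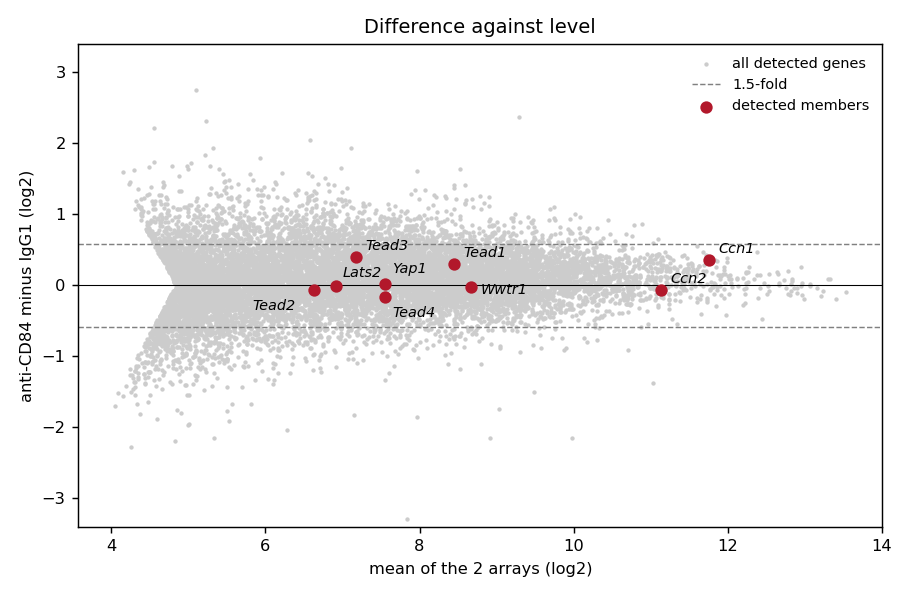
Log2 difference (anti-CD84 minus IgG1) against the mean log2 value of the 2 arrays for all 13284 detected genes (grey) and the 9 detected members (red, named), with dashed lines at 1.5-fold. Every red point lies between the dashed lines, and the grey cloud narrows to the right, so that Ccn1 stands nearer to the edge of the genes around it than Tead3 does.

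The matricellular targets Ccn1 and Ccn2, secreted proteins that bind integrins, differed from each other. Ccn1 was at 11.94 after anti-CD84 and 11.58 after IgG1, a log2 difference of 0.36, or 1.28-fold higher. Ccn2 was at 11.10 and 11.17, a difference of -0.07, or 1.05-fold lower. The differences of the pair stood 0.43 apart. Each kept its sign on centring, loess correction and quantile normalization. The differences were then 0.27 to 0.30 for Ccn1, smaller than as deposited, and -0.16 to -0.14 for Ccn2, farther from 0. The filters and flooring cannot move a gene above the level on both arrays, as both are. Among the 272 detected genes with a mean log2 value of 11 or more, the standard deviation was 0.22 and 95% of differences lay between -0.31 and 0.45. Both genes were inside this range, and 12.5% of the 272 differed at least as much as Ccn1. A further Ccn2 probe set was near the detection level, at 4.70 and 4.91.

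Ankrd1, which encodes a nuclear and sarcomeric ankyrin-repeat protein of muscle and is a common YAP reporter in other cells, did not reach the detection level on either array, at 4.32 and 4.19. No fold is given for it. Its promoter holds the TEAD letters at 2 positions, as printed above. Of 6 muscle markers 4 were detected. Tnnt2 (cardiac troponin T) and Myog were above the level on both arrays, with log2 differences of 0.27 and -0.12, Myod1 and Des were above it after anti-CD84 at 5.07 and 4.86, and Myh3 and Myh6 were below it on both.

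Lats2 is both a Hippo kinase that phosphorylates YAP and a target of YAP that feeds back on it. It was at 6.91 after anti-CD84 and 6.92 after IgG1, a log2 difference of -0.00, which ranged down to -0.13 under other settings. Of all detected genes, 99.2% differed by at least as much. Amotl2 and Ptpn14, named for their role after their values were seen, are further YAP targets that restrain YAP. Amotl2 was at 6.80 and 6.68, and Ptpn14 at 9.32 and 9.25. Their differences of 0.12 and 0.08 turned negative under loess correction and quantile normalization, and that of Ptpn14 also on centring.

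Among the kinases and upstream regulators of the cascade, log2 differences ran from -0.73 to 0.80. Of 32 listed genes 28 were measured and all 28 detected, 3 were past 1.5-fold higher after anti-CD84, 1 was past 1.5-fold lower, and 24 lay between. That is 14.3% of the 28, where all detected genes had 17.1%, and the list's median difference was 0.10 where theirs was 0.09. The median turned to -0.02 with a loess curve removed and to -0.01 on quantile normalization. Wtip, a LIM-domain protein of the Ajuba family that inhibits LATS, was at 7.22 and 6.41, which is 1.74-fold higher. Fat4, the mammalian relative of the giant cadherin Fat that feeds into the pathway in the fly, was at 8.24 and 7.56, which is 1.61-fold higher. Without the loess trend its difference was 0.56, just inside 1.5-fold. Stk4, the MST1 kinase, was at 7.39 and 6.77, or 1.54-fold higher, but lay inside 1.5-fold on centring, loess correction and quantile normalization, with 0.50 the lowest log2 difference.

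Tnik, a MAP4K-related kinase, was the gene past 1.5-fold in the other direction, and rests on a value below the detection level. It was at 4.25 after anti-CD84 and 4.98 after IgG1, so it was at least 1.10-fold lower, counted from that level. Nf2 (merlin), the tumour suppressor that recruits LATS to the membrane, was at 8.33 and 7.79, or 1.45-fold higher. Strn (striatin), a subunit of the phosphatase complex that opposes the MST kinases, was at 9.18 and 8.64, or 1.45-fold higher as well. Map4k4, a kinase that acts beside MST on LATS, was at 9.62 and 9.73. Of the core cassette, named for their roles after the values were seen, Lats1 was at 9.46 and 9.04, its cofactors Mob1a at 9.30 and 8.84 and Mob1b at 7.57 and 7.86, and the MST scaffold Sav1 at 9.69 and 9.66. Lats1 and Lats2 thus had log2 differences of 0.43 and -0.00.

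Of the vestigial-like cofactors, which compete with YAP and TAZ for TEAD, Vgll3 had the largest difference. It was at 8.47 after anti-CD84 and 9.03 after IgG1, a log2 difference of -0.57 or 1.48-fold lower, just inside 1.5-fold. On centring, loess correction or quantile normalization it passed 1.5-fold, to -0.68 at the lowest. Vgll4, a repressor of TEAD, was at 7.29 and 7.03, and was named after its value was seen. Vgll1 and Vgll2 reached the detection level on neither array. With the TEAD genes and coactivators counted in, 8 of 10 genes of this list were detected and 0 were past 1.5-fold as deposited, beside 17.1% of all detected genes.

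A wider list of 22 YAP and TAZ target genes, which includes Ccn1, Ccn2, Ankrd1 and Lats2, held no gene past 1.5-fold. Of 21 measured genes 18 were detected, so the count is 0 of 18, beside 17.1% of all detected genes. The mean log2 values of the 21, with the 3 undetected genes counted in, were 8.08 after anti-CD84 and 7.98 after IgG1. Between 7 and 9 the share of all detected genes was 12.7%. The 18 ran from 5.05 (Fjx1) to 11.76 (Ccn1) in mean log2 value, so that share is not matched to each of them. As deposited 12 of the 18 had a positive difference, after loess correction or quantile normalization 8 did, and 9 lay above the median of all detected genes. The median was 0.10, beside 0.09 for all detected genes, and it became -0.00 with a loess curve removed and -0.01 on quantile normalization. Axl, a receptor tyrosine kinase, had the largest difference as deposited, at 10.83 and 10.34 or 1.41-fold higher. It was followed by Ccn1 and then by Ccdc80, which had the most negative difference of the list and was named after its value was seen. Ccdc80 was at 8.75 and 9.10, a difference of -0.35. Over the settings the difference of Ccdc80 ran from -0.46 to -0.03, and that of Axl from 0.39 to 0.49. Igfbp3 and Nt5e were, like Ankrd1, below the detection level on both arrays.

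**Figure D3:**
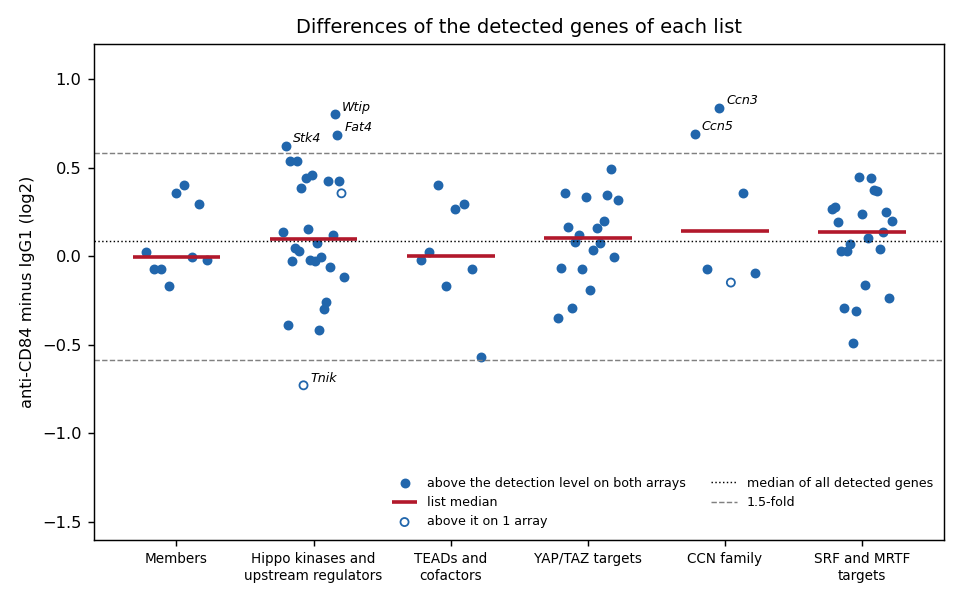
Log2 differences of the detected genes of each list, 1 point per gene, with the list median as a red bar, the median of all detected genes (0.09) dotted and 1.5-fold dashed. Open circles are genes above the detection level on 1 array, and genes past 1.5-fold are named. They are found in the upstream and CCN lists, and none is among the members, the YAP/TAZ targets or the SRF and MRTF targets.

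Within the CCN family of matricellular proteins the larger differences were in genes other than Ccn1 and Ccn2. All 6 genes were detected, 2 were past 1.5-fold higher after anti-CD84 and 0 lower, beside 10.7% and 6.4% of all detected genes. Ccn3 (NOV), an adhesive protein made by stromal cells, was at 8.32 and 7.48, or 1.79-fold higher. Ccn5 (WISP2), which lacks the C-terminal domain of its relatives, was at 11.11 and 10.42, or 1.62-fold higher. Differences at least this large were found in 3.61% of the 4542 detected genes between 7 and 9 for Ccn3, and in 3.77% of the 1936 between 9 and 11 for Ccn5. Ccn6 was at 4.80, below the detection level, and 4.94. Ccn4 (WISP1), named after its value was seen, was at 8.19 and 8.28.

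Actin-linked targets of SRF and its MRTF coactivators, which share several genes with YAP, also held no gene past 1.5-fold. Srf, Mrtfa and Mrtfb themselves are counted in this list. All 21 listed genes were detected, and the 0 of 21 stands beside 17.1% of all detected genes. The list is bright, with mean log2 values of 9.86 after anti-CD84 and 9.77 after IgG1. Between 9 and 11 the share of all detected genes was 6.66%. The 21 genes ran from 6.15 (Cnn1) to 12.95 (Acta2) in mean log2 value, so that share is not matched to each of them. Their median difference was 0.14, where all detected genes had 0.09, with a range from -0.49 to 0.45. Acta2, smooth muscle actin, was at 13.07 and 12.82, a difference of 0.25. Cnn1 (calponin) was the lowest, at 5.91 and 6.39 or 1.40-fold lower, and it passed 1.5-fold on quantile normalization only, at -0.59. The coactivator Mrtfb was the highest of the list, at 8.70 and 8.24 or 1.37-fold higher. Its other probe set, at 5.69 and 4.59, differed by 1.11, which brought the mean of its probe sets past 1.5-fold at 0.78. Srf and Mrtfa had negative differences, -0.29 and -0.24. Tpm2 was the highest of the targets, at 0.44.

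**Figure D4:**
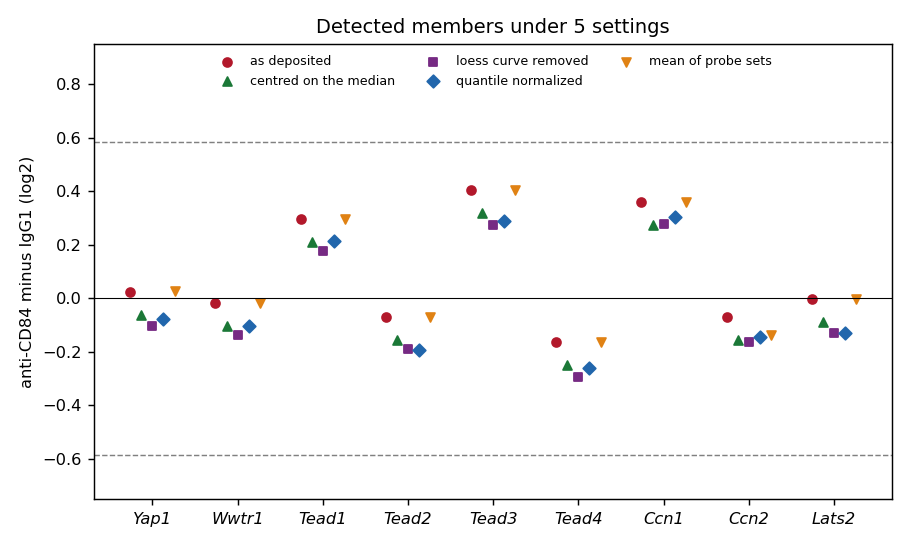
Log2 difference (anti-CD84 minus IgG1) of the 9 detected members as deposited, centred on the median, with a loess curve removed, after quantile normalization, and as the mean of all probe sets, with dashed lines at 1.5-fold. All points lie inside the dashed lines, and Yap1 is the one gene whose points fall on both sides of 0.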

How the data were processed

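RNA of 200000 cells per treatment was measured on 1 array per treatment, from 200 ng of total RNA labelled with biotin, per the labels' protocols. The authors deposited a log2 value for each of 41345 probe sets on either array, made with RMA and Partek, per the submitters' processing notes. Versions, settings and the array's genome build were not given in the sources used here. Scale and 1-colour centring were inferred from the values (1.82 to 13.8, medians 4.87 and 4.88). RMA compresses differences of dim probe sets, and levels of different probe sets were not compared.

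Of the probe sets, 23521 carry 1 symbol in GEO's platform annotation. Listed genes without one (Stk3, Taok1, Rassf1, Gadd45a and Spp1 among them) are not analysed here. A gene was detected above 4.84 on at least 1 array; folds from a value below it are written "at least" and counted from it. The members and lists were chosen with earlier results of these data known. Beside the 10 members, the text names list genes past 1.5-fold, the 2 others with the largest absolute difference and the gene with the highest value. The genes of Other observations were listed after the members' values were seen. Genes named for a pattern like a member's are not given, since 2 arrays make no pattern. Alternatives were centring, loess (limma 3.58.1, span 0.4), quantile normalization, no filter, a stricter level (75th percentile of all values), both arrays above the level, the mean of probe sets, flooring, and 2-fold. Counting was checked on simulated data. Software was R 4.3.3 and Python 3.11.15 with pandas 2.3.3, numpy 2.4.6 and matplotlib 3.10.9.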

Additional observations from a re-analysis of the deposited data

How the results depend on the processing

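The count of members past 1.5-fold was 0 under all 8 alternatives, as was the count in the YAP/TAZ target list. At 2-fold the members' count is then 0 by construction. The filters and flooring cannot change the difference of a gene above the level on both arrays. Averaging of probe sets cannot change a gene with 1 probe set. For such members, centring, loess correction and quantile normalization were the settings that could move the difference. The log2 differences of the 9 detected members moved by at most 0.13 (Tead3), and Yap1 alone among them changed sign. Ankrd1 was counted only without the level filter, at 0.13. The upstream list had 4 genes past 1.5-fold as deposited and 2 with a loess curve removed. All detected genes past 1.5-fold numbered 2277 of 13284 (17.1%) as deposited and 961 of 7481 (12.8%) with the stricter level. Centring turned the 1427 higher and 850 lower genes into 1024 and 1128. Leaving out a replicate was not possible with 1 array per group. No paired analysis was possible because each group has 1 array. The small number of arrays limits the precision, and values near 4.84 carry no order.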

Other observations

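Receptors known to act upstream of YAP had differences in both directions. Of 11 measured receptors for lysophosphatidic acid, sphingosine-1-phosphate and thrombin-like proteases, 8 were detected, 2 were past 1.5-fold higher after anti-CD84 and 0 lower, where 10.7% of all detected genes were higher and 6.4% lower. Lpar4, a receptor for lysophosphatidic acid, was at 8.77 after anti-CD84 and 7.87 after IgG1, or 1.87-fold higher. F2r, the thrombin receptor PAR1, was at 10.49 and 9.82, or 1.59-fold higher, but lay inside 1.5-fold on centring and loess correction, at 0.56 at the lowest. Lpar1 was at 6.29 and 6.51. All 7 genes for 14-3-3 proteins, which hold phosphorylated YAP in the cytoplasm, were detected and 0 were past 1.5-fold, where 17.1% of all detected genes were. The mean log2 values of the 7 were 9.94 after anti-CD84 and 9.82 after IgG1. Between 9 and 11 the share of all detected genes was 6.66%. The 7 ran from 6.84 (Sfn) to 12.24 (Ywhaz) in mean log2 value, so that share is not matched to each of them.

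Subunits of AP-1, which binds many enhancers together with TEAD, had differences in both directions, and 0 of the 6 detected were past 1.5-fold, beside 17.1% of all detected genes. Jun was at 10.38 and 10.01, Fosb at 7.31 and 7.80, and Junb at 8.71 and 9.15. Fosb passed 1.5-fold lower on loess correction and quantile normalization, to -0.62. Of 10 measured genes for turnover or nuclear partners of YAP and TAZ, all were detected and 0 were past 1.5-fold, again beside 17.1%, with Smad2 the highest at 0.48.

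Across all detected genes with a promoter entry, those with CATTCC on either strand differed between the arrays much as those without. The 1470 genes with it had a median log2 difference of 0.09 (SD across genes 0.45), and the 8855 without it had 0.09 (SD 0.43). Past 1.5-fold higher were 10.5% and 10.6%, and past 1.5-fold lower 6.26% and 5.85%. These are shares over genes, which are not independent replicates, and most TEAD sites are known to lie in enhancers outside such windows.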
